A study of Mus musculus with 24 samples.

Results

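Arc, Homer1, Npas4, Bdnf, Nptx2, Vgf, Scg2, Inhba, Pcsk1 and Ptgs2 are effector genes that neurons transcribe after synaptic activity, and they were taken by name from a table of 15232 genes. All 10 were listed, and all 10 were among the 12572 genes tested, those with a mean of at least 1 FPKM (fragments mapped per kilobase of transcript, scaled by library size) over 24 libraries. Each library held polyA RNA from the whole anterior cingulate cortex of 1 mouse, a frontal midline area studied here for effort in goal-directed action. The mice formed 3 arms of 8, each with 4 females and 4 males. The first arm was untrained and labelled wild type (WT), the second was untrained and labelled Thbs1/2 KO, and the third was labelled Thbs1/2 KO and trained in a Skinner box, an operant chamber. Thrombospondins, the products of Thbs1 and Thbs2, are matrix proteins by which astrocytes promote the formation of synapses. Trained mice were food deprived, and RNA was taken within 1 hour of the end of behaviour. The labels give no age or strain, do not say how the deletion was made, and do not say how untrained mice were handled. A trained WT arm is not analysed here, so trained and untrained mice could be compared only under the KO label. Because the handling of untrained mice is not given, training cannot be told apart from food deprivation in that comparison.

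Synaptic calcium entry switches on a first wave of genes within minutes, through transcription factors such as CREB and SRF that are already present in the neuron. Npas4 is itself a transcription factor of that wave, and Arc is made in the same wave but acts at the synapse. The other genes, induced early or with a delay, encode secreted and synaptic proteins and enzymes. They include growth factors (Bdnf, Inhba), a pentraxin that gathers glutamate receptors (Nptx2), and granins and neuropeptide precursors (Vgf, Scg2). The protease that cuts such precursors (Pcsk1), a postsynaptic scaffold (Homer1) and a prostaglandin-making enzyme (Ptgs2) complete the list. In frontal cortex these genes are widely used as a readout of recent experience.

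Several properties of the libraries bear on every result. Thbs1 was higher, not lower, under the KO label. It was at 0.512 ± 0.147 FPKM (SD, n = 8) in libraries labelled WT, 3.68 ± 0.840 in untrained libraries labelled KO and 4.63 ± 0.690 in trained ones. Thbs2 was at 2.02 ± 0.294, 3.51 ± 0.378 and 3.29 ± 0.227 FPKM in the same arms. A gene-level value cannot tell whether a deletion is present. Genotype is therefore given below only as a label. Whole reads recovered from the FPKM values came to 11810963 to 26182340 per library. Depth differed between the arms. Trained libraries had 16003352 to 19488960 reads, and untrained libraries labelled WT had 12353913 to 19029058. Untrained libraries labelled KO had 11810963 to 16810240, apart from male 3 at 26182340. The part of depth in the results was not tested. The library labelled KO untrained male 3 stood apart: its summed level of 7 excitatory neuron markers was the lowest of its arm, at 974.8 FPKM where its 7 arm mates had 1831 to 2143. Its 5 septal markers summed to 181 against 10 to 12.7. Its 8 striatal markers summed to 750 FPKM against 88.6 to 379, its 6 oligodendrocyte markers to 660 against 1065 to 1220, and its 7 inhibitory neuron markers to 796 against 528 to 645. No marker in these lists was at 0 in an arm. Animal number, the number in each library's name, also separated the arms. All 8 trained mice had numbers over 1000, as did 2 untrained males labelled KO and 1 untrained male labelled WT, whereas the other 13 untrained mice had numbers under 1000. The 3 untrained libraries over 1000 had 11810963 to 15918973 reads, fewer than any trained library. The labels do not say what the number stands for. In bulk tissue, fewer cells of a type and less RNA per cell cannot be told apart, and the gene level sums all transcripts, including the short activity-induced and long constitutive forms of Homer1.

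Sequences before the starts of 5 of these genes hold the letters of the element that CREB binds, and are printed because CREB is a main route from activity to transcription. RefSeq promoters (GRCm38.p6) matched 7 of the 10 genes by symbol: Homer1, Npas4, Bdnf, Scg2, Inhba, Pcsk1 and Ptgs2. Only the 250 bases before each annotated start were searched, on both strands. Each line below is a window around the matches on the gene's own strand, with the CREB half-site TGACG, or CGTCA where it lies on the other strand, in capitals.
Scg2, chr1:79440057-79440124, minus strand: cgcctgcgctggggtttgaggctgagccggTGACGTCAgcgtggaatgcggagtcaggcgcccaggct
Pcsk1, chr13:75089749-75089841, plus strand: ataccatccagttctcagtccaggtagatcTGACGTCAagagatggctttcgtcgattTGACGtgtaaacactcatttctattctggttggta
Homer1, chr13:93303671-93303756, plus strand: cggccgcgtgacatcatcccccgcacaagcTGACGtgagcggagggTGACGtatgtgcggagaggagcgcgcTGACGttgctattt
Npas4, chr19:4990106-4990180, minus strand: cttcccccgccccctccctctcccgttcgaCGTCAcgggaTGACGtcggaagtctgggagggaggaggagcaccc
Bdnf, chr2:109692371-109692435, plus strand: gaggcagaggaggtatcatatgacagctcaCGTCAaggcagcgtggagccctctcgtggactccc

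Scg2 and Pcsk1 carried the full palindrome TGACGTCA, in which both half-sites overlap, beginning 68 and 78 bases before the start. Pcsk1 had a further half-site at 50 bases. The palindrome was in 1.55% of 32851 promoters and in at least 1 promoter of 3.21% of the 9568 tested genes with an entry. Homer1 has 2 annotated starts, and the one shown had 3 separate half-sites, 56, 40 and 14 bases before it, while the other had 0. Npas4 had 2, at 179 and 169 bases. Bdnf has 7 annotated starts, and 1 of them had a half-site, 35 bases before it. The half-site alone is common: 31.2% of tested genes with an entry held one, against 5 of these 7 genes. Another Bdnf start held the AP-1 motif TGANTCA, found in 5.03% of tested genes with an entry. Inhba and Ptgs2 had no TGACG in the window. A match is a string of letters, and binding was not measured.

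Across all 24 libraries the gene levels, which FPKM sets per transcript length, covered a wide range. Arc was highest, with a median of 144 FPKM and a range of 45.4 to 246. Scg2 followed at a median of 88.5 FPKM, Vgf at 51.8, Homer1 at 33.8, Pcsk1 at 26.0, Nptx2 at 19.5 and Npas4 at 11.5. Bdnf at 5.19, Ptgs2 at 4.99 and Inhba at 2.30 FPKM were the lowest. Neighbours in this order were separated to different degrees. Scg2 was above Vgf, and Vgf above Homer1, in 24 of 24 libraries. Arc was above Scg2 in 20 of them, and Bdnf was above Ptgs2 in 14, so the order of that last pair was not fixed. Their means were 7.21 and 5.98 FPKM in trained libraries. In untrained libraries Bdnf and Ptgs2 had means of 4.33 and 4.61 under the KO label and 4.50 and 4.76 under the WT label. Reads behind the values ran from 23 to 109 per library for Inhba to 2964 to 14248 for Arc. At 23 reads the counting error is 20.9%, against a spread of 35.8% over that arm, and for the other 9 genes it was at most 7.72% in any library. The spread also holds differences between mice, which the counting error does not cover.

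**Figure D1:**
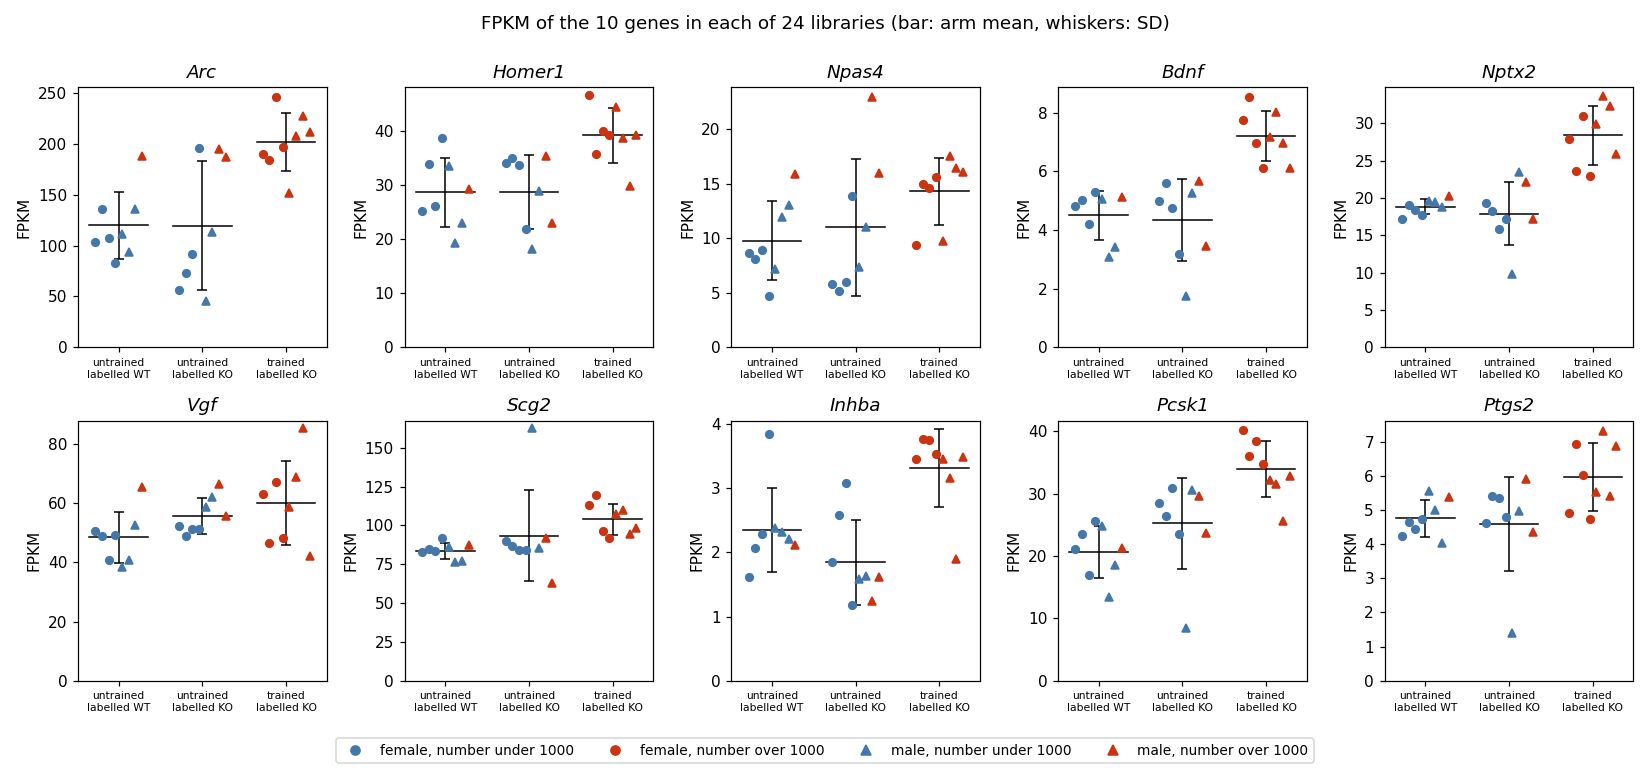
FPKM (y axis, linear from 0, a scale per gene) of each of the 10 genes in the 24 libraries, by arm (x axis). Circles are females, triangles males, red marks an animal number over 1000 and blue under 1000. The bar is the arm mean and the whiskers the SD (n = 8). All 8 trained libraries lie above all 16 untrained ones for Bdnf. The red triangles in the untrained arms lie within the trained range for Arc and within or above it for Npas4. They lie below every trained library for Bdnf and Nptx2.

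Trained and untrained libraries labelled KO were compared to ask which of these genes differed with training. Inhba, Nptx2, Bdnf and Homer1 rose, by between 0.46 and 0.67 on the log2(FPKM + 1) scale, while Arc, Npas4, Pcsk1, Ptgs2, Scg2 and Vgf did not pass the test. The 4 called genes were all higher, where 5.67% of all tested genes were called and 3.5% were called higher (limma, sex as covariate, Benjamini-Hochberg adjusted over all tested genes, threshold 0.05). The estimate was above 0 for 10 of 10 genes, with a median of 0.48. Over all 12572 tested genes it was above 0 for 6568, with a median of 0.0065. Limma-voom on the recovered reads also called 4 of the 10.

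Among the secreted ligands, Bdnf, a neurotrophin that strengthens and matures synapses through the receptor TrkB, had the clearest separation. It ranged from 1.73 to 5.66 FPKM in untrained libraries labelled KO (median 4.87) and from 6.10 to 8.53 in trained ones (median 7.08). Every trained value was above every untrained one, a pattern seen in 0.668% of tested genes. The change was 0.67 ± 0.15 (log2 scale, SE, 8 against 8 mice, limma adjusted p = 0.0187), and without male 3 it was 0.54 (adjusted p = 0.00597).

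Inhba encodes the beta A subunit of activin and inhibin, and the activin it forms acts on spines and on neuronal survival. It ranged from 1.17 to 3.09 FPKM without training (median 1.62) and from 1.90 to 3.77 with it (median 3.48). Only trained male 3, at 1.90, lay within the untrained range. The change was 0.62 ± 0.11 on the log2 scale (limma adjusted p = 0.00627), the smallest adjusted p of the 10 genes.

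Nptx2, also called Narp, is secreted by excitatory axons onto interneurons, where it clusters AMPA receptors. It stood at 9.75 to 23.5 FPKM in untrained libraries (median 17.7) and 22.9 to 33.6 in trained ones (median 28.9). Untrained male 4, at 23.5, was the only untrained library within the trained range. The change was 0.66 ± 0.13 (limma adjusted p = 0.0104) and 0.54 without male 3 (adjusted p = 0.00105).

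Homer1, whose short form loosens the link between metabotropic glutamate receptors and the postsynaptic scaffold, ranged from 18.1 to 35.3 FPKM without training and 29.9 to 46.6 with it. Its medians were 31.3 and 39.2 FPKM, and the groups overlapped. The change of 0.46 ± 0.13 passed narrowly (limma adjusted p = 0.0412). Leaving out any of 11 of the 16 libraries ended the call: trained females 1 to 4, trained males 1, 2 and 4, untrained females 1, 3 and 4, or untrained male 2, with adjusted p from 0.0506 to 0.0864.

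Arc, which drives removal of AMPA receptors from the synapse, had the largest estimate of the 10 and did not pass. Its untrained values spread from 45.4 to 196 FPKM with a median of 103, and its trained values from 152 to 246 with a median of 202. Untrained female 4 was at 196, and males 1, 2 and 4 were at 194, 187 and 114, while the other 4 untrained libraries were at 45.4 to 91.9. The change was 0.93 ± 0.27 (limma adjusted p = 0.0531). It passed when untrained male 1, male 2 or female 4 was left out (adjusted p of 0.0320, 0.0357 and 0.0333), at changes of 1.06, 1.05 and 1.08.

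Npas4, which neurons induce with depolarisation and which shapes inhibitory synapses, ranged from 5.13 to 22.9 FPKM without training and 9.37 to 17.5 with it. The highest Npas4 value of the study, 22.9, was in untrained male 1. Its change was 0.48 ± 0.23 (limma adjusted p = 0.208).

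In the peptide-secretion group, none of 3 genes passed with all libraries. Pcsk1, the proconvertase that begins the cutting of neuropeptide precursors, ranged from 8.49 to 30.9 FPKM without training and 25.7 to 40.1 with it, a change of 0.48 ± 0.18 (limma adjusted p = 0.117). Scg2, a granin that helps form dense-core vesicles, ranged from 62.7 to 163 and from 91.9 to 120 FPKM, a change of 0.19 ± 0.13 (adjusted p = 0.387). Both extremes of male 3, 8.49 for Pcsk1 and 163 for Scg2, fell in the library whose septal, striatal, excitatory, oligodendrocyte and inhibitory marker sums stood apart. Without it, Pcsk1 (0.30, limma adjusted p = 0.0322) and Scg2 (0.32, adjusted p = 0.0178) passed, and 6 of the 10 genes were called, where that fit called 6.78% of all tested genes. Untrained Scg2 then reached 91.8 FPKM at most, just under the lowest trained value of 91.9. Vgf, a neuropeptide precursor induced by neurotrophins, overlapped almost fully, at 48.9 to 66.5 and 42.3 to 85.7 FPKM, with a change of 0.08 (95% interval -0.16 to 0.31).

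Ptgs2, or cyclooxygenase 2, makes prostaglandin precursors in excitatory neurons. It ranged from 1.41 to 5.91 FPKM in untrained libraries and 4.73 to 7.34 in trained ones, with a change of 0.36 ± 0.17 (limma adjusted p = 0.208). The untrained low of 1.41 was again male 3, and the other 7 untrained libraries lay between 4.37 and 5.91.

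**Figure D2:**
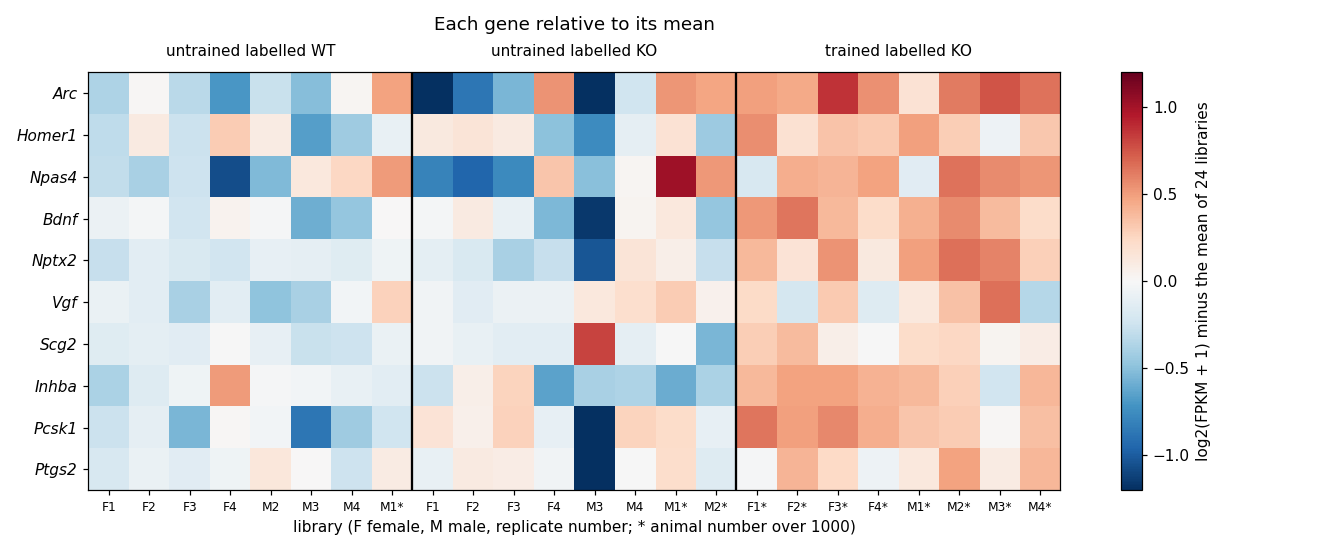
log2(FPKM + 1) of each gene (rows) in each library (columns, by arm) minus the gene's mean over the 24 libraries. Red is above and blue below that mean, and values past either end of the scale take its end colour. F and M give sex, digits the replicate number, and an asterisk an animal number over 1000. Untrained male 3 of the KO label is a dark column for Arc, Bdnf, Nptx2, Pcsk1 and Ptgs2 and red for Scg2.

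All trained mice had numbers over 1000, so the number was then compared within the 16 untrained mice, 3 over 1000 against 13 under. No gene passed there: limma called 0 of 10 and 0 of all tested genes (0%), with 3 of the 10 and 9.02% of all tested genes at an unadjusted p under 0.05. Limma-voom also called 0, with 3 of the 10 and 9.99% of all at an unadjusted p under 0.05. The 3 libraries over 1000 nevertheless lay within or above the trained range for Arc, Npas4 and Vgf. For Vgf, 10 of the 13 under 1000 were above the trained lowest too. Arc was at 194 and 187 FPKM in KO males 1 and 2 and at 188 in WT male 1. The 13 untrained mice under 1000 were at 45.4 to 196 (median 104), and 12 of them were at or below 136, below the trained low of 152. The estimate was 1.08 (95% interval 0.36 to 1.80, limma adjusted p = 0.460). It was 0.79 without KO untrained male 3.

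Npas4 was at 22.9 and 16 FPKM in the same KO males and at 15.8 in the WT male, against 4.66 to 13.8 in the 13 others. All 3 were above all 13, as for 1.11% of tested genes, and all 3 were above the trained median of 15.3. The estimate was 0.82 (95% interval 0.23 to 1.41, limma adjusted p = 0.471), and 0.70 without male 3. Vgf had 65.6 and 66.5 FPKM in 2 of the 3 and 55.8 in the other, against 38.3 to 62.0 (0.28, adjusted p = 0.534).

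The other 7 genes did not lie that way. Bdnf was at 5.66, 3.44 and 5.12 FPKM in KO males 1 and 2 and WT male 1, against 1.73 to 5.59 in the 13 others, and its estimate was 0.36 (95% interval -0.11 to 0.83). Nptx2 was at 22.1, 17.1 and 20.2 FPKM against 9.75 to 23.5, with an estimate of 0.19 that became -0.05 without male 3. Inhba was at 1.25, 1.62 and 2.11 FPKM against 1.17 to 3.86, and Scg2 at 91.8, 62.7 and 87.2 against 76.2 to 163, with estimates of -0.13 and -0.27. Homer1, Pcsk1 and Ptgs2 had estimates of 0.26, 0.42 and 0.37. Without male 3 these 3 were 0.14, 0.06 and 0.05.

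All 3 untrained mice over 1000 were male, so the males alone give the sex-matched comparison, 3 against 5. Arc (1.11) and Npas4 (0.82) were the 2 genes whose over-1000 values all exceeded the under-1000 ones, as did 2.27% of tested genes. Limma and limma-voom called 0 of the 10 and 0 of all tested genes (0%). In each, 2 of the 10 were at an unadjusted p under 0.05, against 5.71% of all tested genes in limma and 5.92% in limma-voom. Without KO untrained male 3 the estimates were 0.74 and 0.65. In the comparison of the 16 untrained mice, the 7 excitatory markers all had estimates above 0, as did 6664 of 12572 tested genes. The median of the 7 was 0.36. They summed to 2090 to 2212 FPKM over 1000 against 974.8 to 2270 under (median 1913), and the low of 974.8 was KO untrained male 3. The 4 septal markers tested had a median of -1.04. The 5 septal markers summed to 181 FPKM in male 3, against 10.4 to 10.9 over 1000 and a median of 11.6 under. The part of these markers in the result was not tested.

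**Figure D3:**
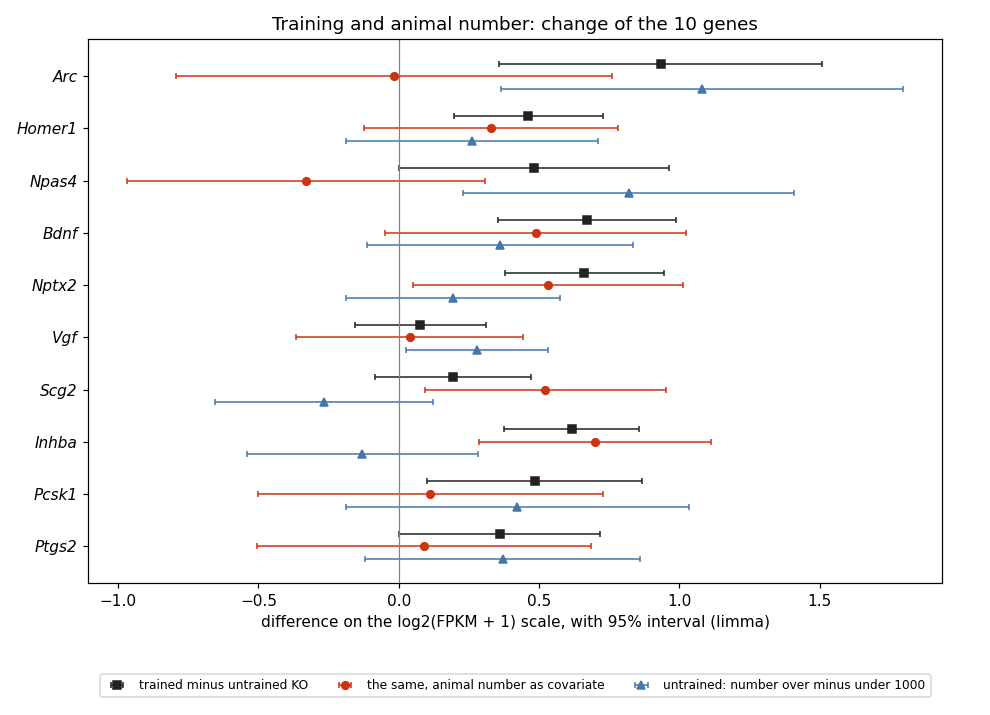
Difference on the log2(FPKM + 1) scale (x axis) for each gene, with the 95% interval from limma. Squares show trained minus untrained libraries labelled KO (8 against 8), circles the same with animal number over 1000 as a covariate, and triangles untrained libraries over minus under 1000 (3 against 13). For Arc and Npas4 the circles lie at or below 0 (-0.02 and -0.33) and the triangles at 1.08 and 0.82, whereas for Inhba, Nptx2, Scg2 and Bdnf the circles lie at 0.49 to 0.70.

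Training was next compared at equal number range, with animal number over or under 1000 added to the fit. Limma called 0 of the 10 genes and 0 of all tested genes (0%), with 3 of the 10 and 10.4% of all tested genes at an unadjusted p under 0.05. Limma-voom called 0, with 3 of the 10 and 9.61% of all at an unadjusted p under 0.05. In this fit training rests on the 8 trained mice against only 2 untrained KO mice over 1000. Inhba kept an estimate of 0.70 (95% interval 0.29 to 1.11, limma adjusted p = 0.274), Nptx2 0.53 (0.05 to 1.01), Scg2 0.52 (0.09 to 0.95) and Bdnf 0.49 (-0.05 to 1.03). Homer1 was at 0.33 (-0.12 to 0.78). Arc was at -0.02 (-0.79 to 0.76) and Npas4 at -0.33 (-0.97 to 0.31), so the interval for Arc covers changes of either sign as large as most of those measured here. Pcsk1 at 0.11, Ptgs2 at 0.09 and Vgf at 0.04 had intervals that also spanned 0. Without KO untrained male 3, Nptx2 was at 0.64, Bdnf at 0.60, Scg2 at 0.43, Inhba at 0.70, Arc at 0.10 and Npas4 at -0.30, and none passed.

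The 4 trained and 2 untrained males labelled KO with numbers over 1000 share label, sex and number range and do not include male 3. They were not alike in striatal markers: an untrained male of the 2 had a sum of 379 FPKM. The trained libraries of both sexes had 86.6 to 279 FPKM. The 8 striatal markers had a median estimate of -0.39 here, and their part was not tested. Depth did not overlap either, at 16003352 to 18295737 reads in the trained males against 11810963 and 15123211. Its part was not tested. Nptx2 was at 29.9, 33.6, 32.3 and 25.8 FPKM in the trained males against 22.1 and 17.1 (0.61, 95% interval 0.32 to 0.91). Inhba was at 3.47, 3.16, 1.90 and 3.49 against 1.25 and 1.62 FPKM (0.70, 0.28 to 1.12). Its 2 untrained values rest on only 23 and 39 reads. Bdnf was at 7.19, 8.03, 6.95 and 6.10 against 5.66 and 3.44 FPKM (0.56, 0.19 to 0.94), and Scg2 at 107, 110, 94.5 and 98.1 against 91.8 and 62.7 (0.43, 0.10 to 0.75). In these 4 genes every trained male was above both untrained ones, as in 11.7% of tested genes. Arc, at 152, 208, 228 and 212 against 194 and 187 FPKM, overlapped (0.05, -0.30 to 0.39). Npas4, at 9.77, 17.5, 16.5 and 16.1 against 22.9 and 16 FPKM, had an estimate of -0.37 (-0.88 to 0.15). Limma called 0 of the 10 and 0 of all tested genes (0%), with 4 of the 10 and 10.5% of all at an unadjusted p under 0.05. Limma-voom called 0, with 5 of the 10 and 10% of all at an unadjusted p under 0.05.

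Set against all untrained mice of both labels, the trained arm separated fully in 1 gene. Every trained library was above all 16 untrained ones for Bdnf, as for 0.334% of tested genes. Against the 3 untrained mice over 1000, every trained library was higher for Bdnf, Nptx2 and Scg2, as for 4.08% of tested genes. For Scg2 this was narrow, with nearest values of 91.94 and 91.79 FPKM. Against the 13 under 1000 the same held for Bdnf alone of the 10, as for 0.573% of tested genes. Trained mean levels were 1.06 times those of the 3 untrained mice over 1000 for Arc and 0.784 times for Npas4. The same ratio was 2.00 for Inhba, 1.52 for Bdnf, 1.43 for Nptx2 and 1.29 for Scg2.

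**Figure D4:**
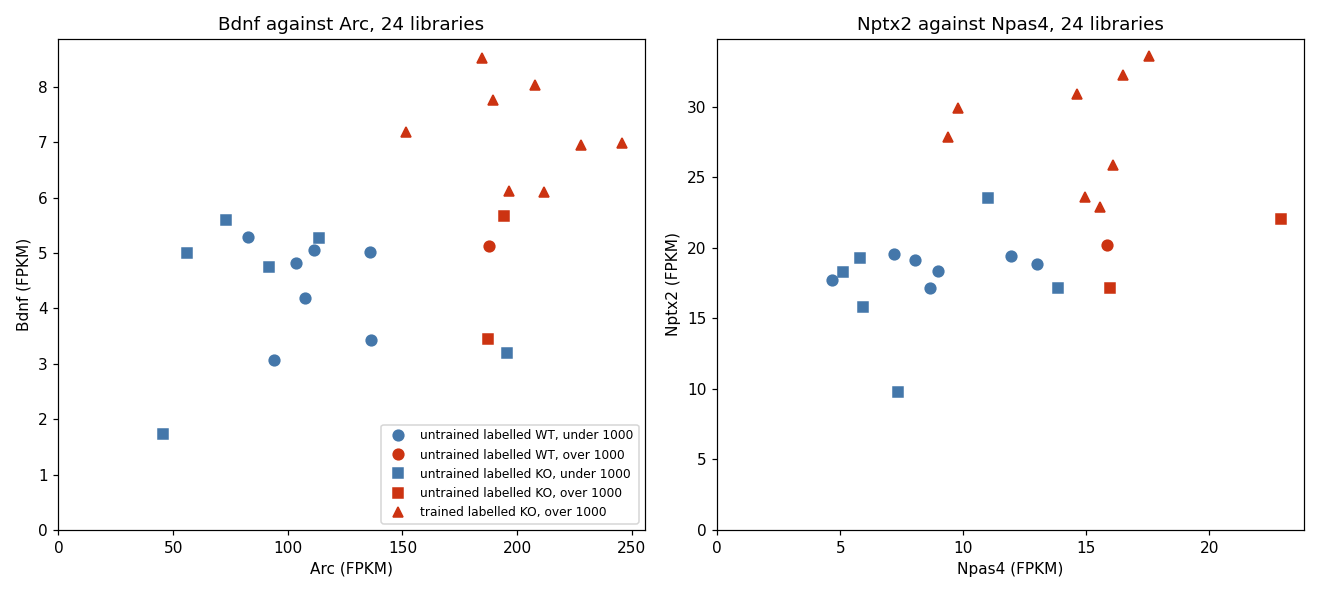
Bdnf against Arc (left) and Nptx2 against Npas4 (right), in FPKM on linear axes from 0, 1 point per library. Circles are untrained labelled WT, squares untrained labelled KO and triangles trained labelled KO, with red for an animal number over 1000 and blue for under. The 3 red untrained points lie among the triangles along the Arc axis. Along the Npas4 axis 2 of them do and 1, at 22.9 FPKM, lies beyond every triangle, and along the Bdnf and Nptx2 axes all 3 lie below every triangle.

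The genotype label was compared in untrained mice, KO against WT. Of the 10 genes only Bdnf, at chr2:109674700-109727043 (GRCm38.p6), lies on the chromosome of Thbs1 (chr2:118111876-118127133), and none lies on chromosome 17, that of Thbs2. Limma called 0 of the 10 genes, where 1.42% of all tested genes were called. Vgf alone was at an unadjusted p under 0.05 (1 of 10, against 12.7% of all tested genes), and limma-voom gave the same 2 counts for the 10 (12.9% of all at an unadjusted p under 0.05). Vgf was at 38.3 to 65.6 FPKM (median 49.2) under the WT label and 48.9 to 66.5 (median 54.1) under the KO label, and the groups overlapped (0.21, 95% interval 0.02 to 0.40, limma adjusted p = 0.324). Inhba had an estimate of -0.25 (-0.52 to 0.02) and Pcsk1 of 0.22 (-0.20 to 0.65). Pcsk1 stood at 0.41 without KO untrained male 3 (limma adjusted p = 0.0541). Arc, at 82.5 to 188 FPKM under the WT label and 45.4 to 196 under the KO label, had equal means of 120 but SDs of 33.1 and 63.8. Its interval ran from -0.76 to 0.44. The estimates of Homer1, Npas4, Bdnf, Nptx2, Scg2 and Ptgs2 lay between -0.10 and 0.11, and those of Arc, Bdnf, Nptx2, Scg2 and Ptgs2 changed sign without male 3.

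Trained mice labelled KO were also set against untrained mice labelled WT, which differ in both labels and, for 7 of the 8 WT mice, in number range. Limma called 9 of the 10 genes higher, where 24.5% of all tested genes were called and 12.9% were called higher. This comparison shares its trained libraries with the comparison of training, and does not include KO untrained male 3. Nptx2 was at 17.1 to 20.2 FPKM under the WT label and 22.9 to 33.6 after training, a change of 0.56 ± 0.06 (limma adjusted p = 1.02e-05). Pcsk1 was at 13.4 to 25.7 against 25.7 to 40.1 FPKM, a change of 0.70 ± 0.10 (adjusted p = 0.000115). Bdnf was at 3.07 to 5.29 against 6.10 to 8.53 FPKM (0.59 ± 0.09, adjusted p = 0.000223). In Nptx2, Bdnf, Pcsk1 and Scg2 every trained library was above every WT one, as in 1.65% of tested genes, though narrowly for Pcsk1, where the nearest values were 25.66 and 25.65 FPKM, and for Scg2, where they were 91.94 and 91.82. Arc (0.78), Scg2 (0.31), Homer1 (0.46), Ptgs2 (0.27), Inhba (0.37) and Npas4 (0.55) also rose, with limma adjusted p from 0.000517 to 0.0213. Vgf, at 0.29, did not pass (limma adjusted p = 0.108). It passed without trained male 4 (0.37, adjusted p = 0.0279) or without WT male 1 (0.35, adjusted p = 0.0492).

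Neither the effect of the genotype label nor that of training was shown to differ between the sexes for any of the 10. Limma called 0 of 10 interactions with sex for each, with 0 of 10 at an unadjusted p under 0.05 (against 3.13% of all tested genes for the genotype label and 15.5% for training). Limma-voom gave the same counts for the 10 (3.75% and 15.3% of all). Over all tested genes limma called 0% for the genotype label and 0.00795% for training. The intervals were wide for Arc (genotype label -1.18 to 1.31, training -1.56 to 0.81, male minus female) and for Npas4 under training (-0.69, 95% interval -1.63 to 0.24), and allow a large difference. Number range was not equal between the sexes. All 4 untrained KO females had numbers under 1000, whereas 2 untrained KO males were over and 2 under. Sex and number range therefore cannot be told apart in these interactions, and KO untrained male 3 is among the males.

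Related genes were taken from lists and set against the 5.67% of all tested genes called with training. Of 17 tested immediate-early transcription factors, 7 rose (median 0.48), among them Nr4a3 (0.56), Nr4a2 (0.55), Egr3 (0.63), Klf4 (0.49), Fosl2 (0.39) and Egr2 (0.81). Of 28 other activity-induced genes, 3 rose: Dnajb5 (0.44), a co-chaperone, Fbxo33 (0.23) and Cdkn1a (0.37), a cell-cycle inhibitor. The median of that list was 0.15. Among 9 genes of AMPA receptor endocytosis and scaffolding, where Arc acts, Sh3gl1 (endophilin, 0.23) rose and the other 8 did not pass. Of 9 Homer and metabotropic glutamate receptor partners, 0 passed. Of 6 tested genes of neurotrophin receptors and processing, 5 pentraxin and AMPA receptor partners, and 8 granins and processing enzymes, 0 passed in each. Of 11 tested activin pathway genes, Acvr1b, an activin type I receptor, fell by 0.16, and of 7 tested prostanoid genes Ptges3 rose by 0.19. Excitatory markers did not pass in 7 of 7 cases, with a median of 0.21. Their sums were 1730 to 2189 FPKM in trained libraries (median 1867) against 974.8 to 2143 in untrained libraries labelled KO (median 1915). The low of 974.8 was KO untrained male 3, and without it the untrained sums were 1831 to 2143 (median 1918). Of the inhibitory, astrocyte, oligodendrocyte, microglia, striatal and septal markers 0 passed, and of 5 endothelial markers Ly6c1 rose (0.49). The 6 oligodendrocyte markers had a median of 0.23. Their part in the changes above was not tested.

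With the genotype label, where 1.42% of all tested genes were called, 0 of the 17 factors, 0 of the 28 other activity genes and 1 partner were called, Acvr1c, another activin type I receptor, which fell by 0.32 (limma adjusted p = 0.0458). In trained KO against untrained WT libraries, where 24.5% of all tested genes were called and 12.9% were called higher, 11 of the 17 factors rose and Klf10 fell, and of the 28 other activity genes 11 rose and Sorcs3 fell. Of the 9 Arc partners, 2 rose, among them Sh3gl1 (0.21), and of the pentraxin partners Gria3, an AMPA receptor subunit, fell by 0.12. In that pair, the granin-processing list held Pcsk2, a second proconvertase, which fell by 0.27, while Pcsk1 rose, and Chgb (0.16) and Scg5 (0.18), a granin and a Pcsk2 chaperone, rose. The prostanoid list held Ptgds, the prostaglandin D synthase, which rose by 0.81, Ptges2 (0.16) and Ptgs1, cyclooxygenase 1, which fell by 0.24 while Ptgs2 rose. Activin receptors Acvr1c, Acvr2b and Acvr1b fell by 0.29, 0.35 and 0.16, while the ligand gene Inhba rose. Grm5 fell by 0.29 and Dlgap1 by 0.14 among the Homer partners. Arnt2, the dimer partner of Npas4, fell by 0.18. Plat, a protease that processes proBDNF through plasmin, rose by 0.23. Cell type markers also moved in this pair. Of 7 excitatory markers 2 rose, among them Neurod6 (0.19), and of 7 inhibitory markers Pvalb rose by 0.47 and Sst by 0.33. Neither full list went 1 way: 4 of 7 estimates were above 0 in each, with medians of 0.04 (excitatory) and 0.03 (inhibitory). Of 6 microglial markers 3 fell, P2ry12 by 0.30, while Tmem119 rose by 0.14. Ly6c1 rose by 0.53 and the astrocyte marker Slc1a3 fell by 0.21. Their part in the result was not tested.

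By animal number in untrained mice, 0 of the 17 factors passed and 16 of 17 had estimates above 0 (median 0.39). Of all 12572 tested genes, 6664 had estimates above 0 (median 0.0089). Fos (0.98), Nr4a1 (0.94), Egr2 (0.89) and Junb (0.85) had the largest estimates. The 28 other activity genes had a median of 0.27, with 23 above 0. With animal number in the fit of training, the median of the 17 factors was 0.04, that of the 28 was 0.0042 and that of the 10 effectors 0.22.

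Which genes followed each other over the 24 libraries is given as a description, since libraries share arms, depth and tissue makeup. Arc was most like Nr4a1 (Pearson r of log2(FPKM + 1) 0.939), Trib1 and Dusp1, and Npas4 was most like Fos (0.929), Cyr61 and Egr2. Homer1 was most like Spred1 (0.924), Crem and Syt4, and Bdnf most like Dcaf12 (0.902), Crem and Lipg. Pcsk1 was most like Gfod1 (0.963), Inhba most like Chordc1 (0.874), Nptx2 most like Stx4a (0.890) and Vgf most like Phlda1 (0.865). For Ptgs2 the gene was Neurod6, an excitatory marker, at 0.903, but at 0.639 without KO untrained male 3. For Scg2 it was Mdga1, at 0.867 and 0.747 without that library. Among the 45 pairs of the 10 genes, 10 had r above 0.7, and 8 without male 3. Arc and Npas4 went together (0.817), as did Homer1 and Bdnf (0.880), Bdnf and Pcsk1 (0.871), and Homer1 and Pcsk1 (0.858). Homer1 and Npas4 had r of -0.027, and Inhba and Npas4 of -0.125. Bdnf and Scg2 had 0.151 with male 3 and 0.890 without it.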

How the data were processed

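The deposited table holds FPKM values per gene and library, made by the authors; the submitters' processing notes name FastQC 0.11.7, Trimmomatic 0.38, STAR 2.5.3a, featureCounts, Subread 1.6.3 and mm10, with no role or order. Values became log2(FPKM + 1), and limma 3.58.1 in R 4.3.3 (lmFit, eBayes with a trend) was fitted on the libraries compared, with sex as covariate, on the 12572 genes with a mean of at least 1 FPKM. P-values were Benjamini-Hochberg adjusted over all of them, with a threshold of 0.05. The log2 change understates the change of low genes. Whole reads were recovered from the FPKM steps for 15210 of 15232 genes (99.86%, within 0.01 read), and were used for depth and for limma-voom, an alternative. Replicates are separate mice. Scripts were tested on simulated data. Replicate numbers name different animals: the mean correlation of same-numbered libraries was 0.025, -0.070 and -0.10 in the 3 comparisons of arms, so no block was used. The genes, lists and tests were chosen with earlier results of these data known. Named were all 10 genes, Thbs1 and Thbs2, up to 6 called genes of each list with the smallest adjusted p, partners, and the 3 non-members with the highest correlation to each gene. Fos, Nr4a1, Egr2 and Junb under animal number were named after their values were seen. Promoters are from RefSeq (GRCm38.p6). Some genes of the lists are not reported here.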

Additional observations from a re-analysis of the deposited data

Results flagged for a closer look

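Of 30 groups (10 genes in 3 arms of 8), 5 held a library far from the other 7 by Dixon's criterion at the 95% level, where chance alone gives about 1 in 20, or 1.5. Of these, 3 were the library labelled KO untrained male 3: Scg2 at 163 FPKM against 62.7 to 91.8, Pcsk1 at 8.49 against 23.5 to 30.9, and Ptgs2 at 1.41 against 4.37 to 5.91. The same library had the marker sums given above for excitatory, inhibitory, oligodendrocyte, striatal and septal genes, and their part in these values was not tested. The other 2 were Inhba, at 3.86 FPKM in WT untrained female 4 against 1.61 to 2.38, and at 1.90 in KO trained male 3 against 3.16 to 3.77. Inhba had the fewest reads of the 10 genes, 32 to 90 per library in the first of these arms and 56 to 109 in the second.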

How the results depend on the processing

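With array weights, which give libraries that fit poorly less weight, training called 7 of the 10 genes and 2020 of all tested genes. With a replicate block it called 0 and 29. The block moved the other counts of genes to 114 (genotype label) and 1614 (trained KO against untrained WT), and Homer1, Bdnf, Nptx2 and Inhba lost their training calls under it. All 24 libraries in one fit gave 1238 training calls, and no sex covariate gave 422, with 98 for the genotype label. Array weights gave 297 genotype calls, 2 for animal number in untrained males and 80 for training with animal number. Training by sex had 13 calls with a pseudocount of 0.1, 15 with median-ratio scaling and 25 with limma-voom. Equal-sum scaling changed the split of training calls from 440 higher of 713 to 235 of 620, and of trained KO against untrained WT from 1626 of 3074 to 1095 of 3207; Homer1 lost its training call there.

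Estimates near 0 changed sign. Under the genotype label, Homer1 was at -0.00017 (pseudocount 0.1), -0.0059 (equal sum) and -0.00039 (limma-voom), and with array weights Bdnf was at 0.067, Nptx2 at 0.011 and Ptgs2 at 0.078. Array weights gave Nptx2 -0.0087 for animal number in untrained mice, and Arc -0.10 and Vgf -0.0022 in males over 1000, where equal-sum scaling gave Vgf -0.012. The cause was not tested.

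Leaving out each library in turn gave 330 to 945 training calls overall and 3 to 6 of the 10 genes, 115 to 340 genotype calls, 0 to 194 for training by sex, 0 to 1 for training with animal number and 0 to 2 in males over 1000. Genotype estimates then ran from -0.32 to 0.049 (Arc), -0.069 to 0.073 (Homer1), -0.062 to 0.17 (Npas4), -0.16 to 0.041 (Bdnf), -0.16 to 0.019 (Nptx2), -0.017 to 0.19 (Scg2) and -0.15 to 0.079 (Ptgs2). Nptx2 by animal number ran from -0.050 to 0.36 in untrained mice and -0.088 to 0.47 in males. Training with animal number ran from -0.090 to 0.096 (Arc), -0.085 to 0.18 (Vgf), -0.045 to 0.27 (Pcsk1) and -0.093 to 0.27 (Ptgs2), and in males over 1000 from -0.019 to 0.18 (Arc) and -0.13 to 0.20 (Vgf). With a mean of at least 5 FPKM, Inhba was not tested and Arc passed for training. Number range and training rest on 2 to 3 untrained mice over 1000, which limits every estimate at equal number.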
